A study of Mus musculus with 6 samples.

Results

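Small leucine-rich proteoglycans are secreted matrix proteins with a core of leucine-rich repeats that bind collagen fibrils, and most of them carry glycosaminoglycan chains. Class I members decorin, biglycan and asporin hold chondroitin or dermatan sulfate chains or, for asporin, none. Lumican, fibromodulin, osteomodulin and PRELP are class II members, of which lumican and fibromodulin carry keratan sulfate, and osteoglycin belongs to class III. In bone, suture and tendon they are known for setting the width of collagen fibrils and for binding TGF-beta and BMP ligands in the matrix.

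The genes were taken by symbol, Dcn, Bgn, Lum, Fmod, Aspn, Ogn, Omd and Prelp, 8 of 27840 genes kept. Earlier results of these data were known when they were chosen. Single-cell 3′ RNA-seq was performed on calvarial cells of wild-type C57BL/6 mice, stated to be male, at 2, 12 and 18 months. At each age the sagittal suture with the adjoining parietal bone (CBMA) and the parietal bone away from the suture (CBMD) were made into a library each, giving CBMA_02m, CBMA_12m, CBMA_18m, CBMD_02m, CBMD_12m and CBMD_18m. Every mouse was untreated, 6 to 8 mice of an age were pooled, and each age and site is therefore 1 library. Dura and periosteum had been stripped off, and dead cells and red cells removed, before capture, which limits the cells that could be sampled. Values are UMIs, which count captured transcript 3′ ends and are not scaled by gene length, added up over the cells of each class within a library and scaled to 1000000 UMIs of that sum (CPM).

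A total of 37576 cells were kept, 2718 to 8580 in a library, with a median of 2806 to 3930.5 UMIs per cell. Xist was at 564 and 596 CPM in CBMA_12m and CBMD_12m and at 0.252 to 0.360 CPM in the other 4 libraries, which goes against the stated sex at 12 months and touches the X-linked Bgn there. Libraries shared 6 to 21 cell barcodes between pairs. Stromal cells were few. The suture stroma gate, Prrx1 of at least 1 UMI and Col1a1, Col1a2 and Col3a1 of at least 20 UMIs together, held 290 cells. Of these, 13 also passed the osteoblast gate, 24 the fibroblast gate and 64 the Cxcl12-high gate, some cells more than 1 of them, and all of these were counted in those classes, which left 191 suture stroma cells. At least 10 suture stroma cells were found in CBMA_02m (35 cells), CBMA_18m (110 cells) and CBMD_02m (32 cells). Cxcl12-high stroma, the reticular cells of marrow, reached 10 cells in CBMA_18m (105 cells), CBMD_12m (26 cells) and CBMD_18m (43 cells). No library held 10 fibroblasts or 10 osteoblasts, and their sums of 5 to 9 cells are given as such.

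Markers outside the gates were summed as a check of these names. The 7 suture markers were all detected in suture stroma, at 8626, 7377 and 12973 CPM together in CBMA_02m, CBMA_18m and CBMD_02m, against 290, 461 and 248 CPM in Cxcl12-high stroma of CBMA_18m, CBMD_12m and CBMD_18m. Most of that sum was Sfrp2, at 5437 to 11032 CPM in suture stroma, and Postn stood at 678 to 938 CPM, against 26.4 to 171 CPM in Cxcl12-high stroma. The suture stem cell markers were low, with Gli1 at 17.1 to 21.5 CPM, against 0 to 11.7 CPM, and Axin2 at 6.84 to 27.6 CPM, which overlapped the 7.44 to 12.6 CPM of Cxcl12-high stroma. The 6 Cxcl12-high markers, among them Ebf3 and Kitl, stood at 179, 450 and 270 CPM in those suture sums, against 9690, 7287 and 10606 CPM in the Cxcl12-high sums. The 5 suture stroma cells of CBMD_18m went against their name, with suture markers at 488 CPM, osteoblast markers at 5463 CPM and Cxcl12-high markers at 1971 CPM, and they enter no comparison made at 10 cells.

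Of the 8 genes, 7 lie beside another of the family in 3 clusters of the mouse genome (GRCm38), and Bgn lies alone at chrX:73483602-73495933. Dcn (chr10:97479609-97518143) is followed on the same strand by Lum (chr10:97565128-97572703) after 46984 bases. Aspn (chr13:49544443-49567565), Omd (chr13:49582462-49592822) and Ogn (chr13:49608046-49624501) follow each other on the plus strand with gaps of 14896 and 15223 bases. Prelp (chr1:133910304-133921414, minus strand) and Fmod (chr1:134037254-134048277, plus strand) lie 115839 bases apart and point away from each other.

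The 250 bases before the start are shown for the neighbours on chromosomes 13 and 1, since these pairs differ in how they separated the 2 main stromal classes. The sequences are from RefSeq on GRCm38.p6, whose table holds 6 of the 8 genes and not Dcn or Lum, and all are written 5′ to 3′ on the gene's strand. They cover chr13:49544193-49544442 (plus strand) for Aspn, chr13:49582212-49582461 (plus strand) for Omd, chr13:49607765-49608014 (plus strand) for Ogn, chr1:134037004-134037253 (plus strand) for Fmod and chr1:133921402-133921651 (minus strand) for Prelp. Capitals mark matches on either strand to TATAAA (the core promoter box), TGTGGT (RUNX core) or TGANTCA (AP-1).
Aspn: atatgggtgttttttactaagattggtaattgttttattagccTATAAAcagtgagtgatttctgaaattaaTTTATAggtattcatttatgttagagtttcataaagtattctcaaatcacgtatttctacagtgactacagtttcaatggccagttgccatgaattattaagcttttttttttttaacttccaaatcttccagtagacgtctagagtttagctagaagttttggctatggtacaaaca
Omd: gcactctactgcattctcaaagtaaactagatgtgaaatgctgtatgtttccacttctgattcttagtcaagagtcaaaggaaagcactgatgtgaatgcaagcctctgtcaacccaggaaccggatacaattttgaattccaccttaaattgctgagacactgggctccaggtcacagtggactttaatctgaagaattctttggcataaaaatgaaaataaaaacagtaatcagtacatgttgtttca
Ogn: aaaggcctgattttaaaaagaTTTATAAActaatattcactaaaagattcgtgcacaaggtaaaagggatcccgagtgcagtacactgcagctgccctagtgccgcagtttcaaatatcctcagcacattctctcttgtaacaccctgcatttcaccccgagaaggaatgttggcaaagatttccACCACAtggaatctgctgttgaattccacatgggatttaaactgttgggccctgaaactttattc
Fmod: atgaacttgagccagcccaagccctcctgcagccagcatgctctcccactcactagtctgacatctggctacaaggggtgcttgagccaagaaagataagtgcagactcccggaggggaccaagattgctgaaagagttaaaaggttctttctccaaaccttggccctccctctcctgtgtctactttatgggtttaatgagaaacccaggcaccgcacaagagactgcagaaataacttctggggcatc
Prelp: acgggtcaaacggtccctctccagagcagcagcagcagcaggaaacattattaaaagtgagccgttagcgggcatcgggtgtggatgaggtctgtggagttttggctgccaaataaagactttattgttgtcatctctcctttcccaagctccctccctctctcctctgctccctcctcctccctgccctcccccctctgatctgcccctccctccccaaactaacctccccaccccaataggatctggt
Aspn holds TATAAA 207 bases before its start and the reverse match 178 bases before it. Ogn holds 2 overlapping matches, 229 and 227 bases before its start, and the reverse match to TGTGGT at 65 bases. Omd, Fmod and Prelp hold none of the 3 motifs in these windows. Among 32851 mouse promoter windows of the same length, 12.4% hold TATAAA, 14.05% TGTGGT and 6.75% TGANTCA on either strand, so the matches are descriptions of these letters alone. The E-box CANNTG, held by 66.2% of the windows, has 3 matches in Ogn and 1 each in Aspn, Fmod and Bgn.

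The 8 genes together were far higher in stroma than in neutrophils, the most abundant cells. They summed to 13380, 15040 and 18421 CPM in suture stroma of CBMA_02m, CBMA_18m and CBMD_02m, against 7309, 5793 and 5657 CPM in Cxcl12-high stroma of CBMA_18m, CBMD_12m and CBMD_18m. Neutrophils held 2.57 to 23.1 CPM. Suture stroma, fibroblasts, Cxcl12-high stroma and osteoblasts, 410 cells in all, held between 73.9% (Omd) and 88.7% (Lum) of the UMIs of each gene pooled over libraries. By library, these 4 classes held 18.8% (Omd) to 83.6% (Fmod) in CBMA_12m, 27.8% (Omd) to 82.6% (Lum) in CBMD_12m and 66.7% to 95.5% in the other 4 libraries. In CBMA_12m the cells that passed no gate held 49.0% of the Dcn UMIs, against 46.7% in the 4 classes. A median of 6, 7 and 7 of the 8 genes were detected per suture stroma cell in CBMA_02m, CBMA_18m and CBMD_02m, against 5, 4 and 4 per Cxcl12-high cell in CBMA_18m, CBMD_12m and CBMD_18m, at a median depth of 8118, 9356 and 8437.5 UMIs against 8352, 5122.5 and 7007 UMIs.

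**Figure D1:**
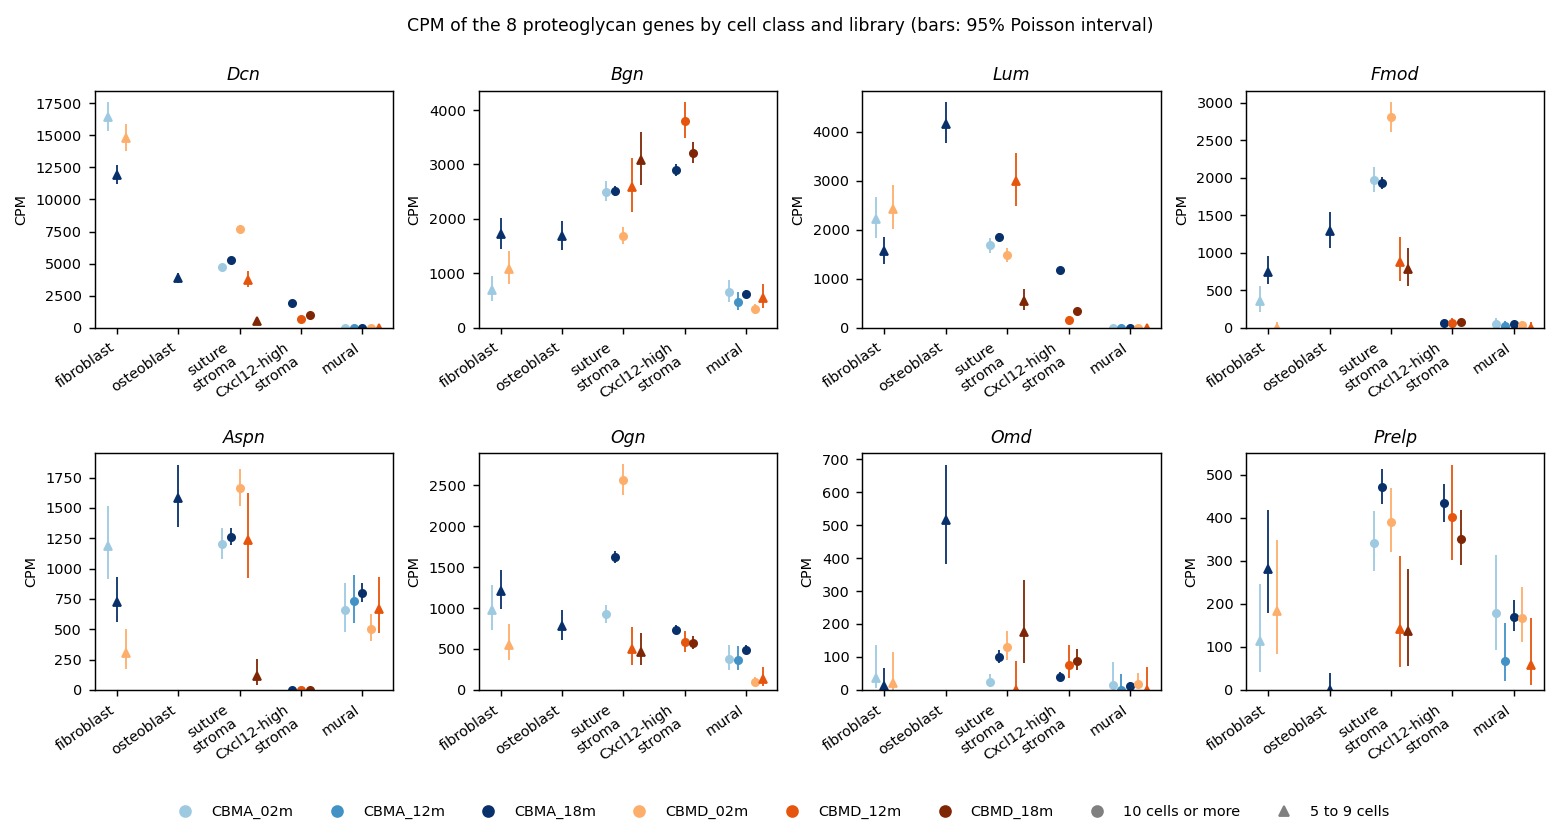
CPM of each gene (linear axis, 1 panel a gene) in fibroblasts, osteoblasts, suture stroma, Cxcl12-high stroma and mural cells, 1 point for each library with at least 5 cells, with the exact 95% Poisson interval of the sum as a bar. Aspn and Fmod stand far above the Cxcl12-high points in suture stroma, Dcn is highest in fibroblasts, and Bgn is highest in Cxcl12-high stroma, where CBMD_12m reached 3807 CPM.

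Suture stroma was set against Cxcl12-high stroma to ask which members tell the 2 main stromal classes apart. These are names of gates and not of sites. A suture stroma sum of 32 cells came from distant bone (CBMD_02m), and 105 Cxcl12-high cells came from the suture site (CBMA_18m). Aspn, Fmod, Dcn and Ogn were higher in suture stroma, Bgn, Omd and Prelp were not called in either direction, and Lum missed the threshold. Called here means an adjusted p under 0.05 in edgeR's quasi-likelihood test over the class sums, 3 against 3, with Benjamini-Hochberg adjustment over 5058 genes. By this rule 4 of the 8 genes were higher, beside 8.9% of all genes tested, and 0 of the 8 were lower, beside 10.9%. The suture gate requires collagen UMIs and the Cxcl12-high gate does not, so matrix genes that go with collagen may be favoured. The part of the gate in these counts was not tested. The median log2 fold change of the 8 was 1.57, against 0.01 for all genes tested. Both stromal classes of a library come from the same pool, and 2 of the 3 suture sums but none of the Cxcl12-high sums are from 2 months, so values within CBMA_18m are given beside the test. Xist was at 476 CPM in the Cxcl12-high sum of CBMD_12m and at 0 UMIs in the 3 suture sums, and its part in the contrast was not tested.

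Aspn, which in cartilage binds collagen and inhibits TGF-beta, separated the classes most. It stood at 1203, 1263 and 1663 CPM in suture stroma of CBMA_02m, CBMA_18m and CBMD_02m, against 3.44 CPM in Cxcl12-high stroma of CBMA_18m and 0 UMIs in CBMD_12m and CBMD_18m. The 3.44 CPM are 3 UMIs of 1 cell, so almost all Aspn UMIs of these 6 sums lay in suture stroma. The edgeR log2 fold change was 9.26 ± 0.58 (SE, adjusted p = 3.57e-06), a fitted value that depends on the prior count because of the empty sums. Against the floor of 3 UMIs per library, the lowest suture sum was at least 53.9-fold higher than CBMD_12m and at least 137-fold higher than CBMD_18m. Aspn was detected in 82.9%, 70.0% and 87.5% of suture stroma cells of CBMA_02m, CBMA_18m and CBMD_02m and in 0.952% (95% exact binomial interval 0.0241% to 5.19%) of Cxcl12-high cells of CBMA_18m. Neutrophils, which should lack the gene, held an Aspn UMI in 0.135% of cells at a median of 3100 UMIs.

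Fmod, the keratan sulfate proteoglycan that tunes collagen cross-linking and fibril width in tendon, was next. It measured 1969, 1931 and 2803 CPM in suture stroma of CBMA_02m, CBMA_18m and CBMD_02m, against 64.3, 66.9 and 70.2 CPM in Cxcl12-high stroma of CBMA_18m, CBMD_12m and CBMD_18m. The groups are far apart, and each is narrow. The edgeR log2 fold change was 5.14 ± 0.38 (SE, adjusted p = 9.29e-06), that is 35.2-fold. Within CBMA_18m alone the ratio was 30.1. Fmod was found in 77.1%, 87.3% and 93.8% of suture cells, against 17.1%, 15.4% and 9.30% of Cxcl12-high cells in the same order of libraries, and in 0.259% of neutrophils.

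Dcn, which binds collagen and TGF-beta, was the most abundant of the 8 in suture stroma, with 4740, 5279 and 7699 CPM in CBMA_02m, CBMA_18m and CBMD_02m. Cxcl12-high stroma held 1965, 699 and 1023 CPM in CBMA_18m, CBMD_12m and CBMD_18m. The sums did not overlap, and the edgeR log2 fold change was 2.34 ± 0.47 (SE, adjusted p = 0.00384). Dcn was detected in 94.3%, 96.4% and 100% of suture cells and in 97.1%, 65.4% and 81.4% of Cxcl12-high cells, and at 1000 UMIs per cell in 81.2% to 92.5% of suture cells, against 38.9% to 71.7% of Cxcl12-high cells. Within CBMA_18m the ratio was 2.69 (exact 95% interval 2.55 to 2.84). The call was lost in sums of at least 5 cells (log2 fold change 1.84, edgeR adjusted p = 0.0962), which take in the 5 CBMD_18m cells that went against their name. It was also lost with library as a term in those sums (1.05, edgeR adjusted p = 0.274) and with all cells of the suture gate (2.17, edgeR adjusted p = 0.211).

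Ogn, known to bind collagen and to be made by bone cells, was higher in suture stroma by a smaller margin. It was at 924, 1625 and 2563 CPM in suture stroma of CBMA_02m, CBMA_18m and CBMD_02m, against 735, 580 and 573 CPM in Cxcl12-high stroma of CBMA_18m, CBMD_12m and CBMD_18m. The edgeR log2 fold change was 1.51 ± 0.39 (SE, adjusted p = 0.0167). The 3 suture sums spread more than those of the other members called, and the call was lost without CBMD_02m (edgeR adjusted p = 0.0598), without CBMD_12m (edgeR adjusted p = 0.0536) and without CBMD_18m (edgeR adjusted p = 0.0865). It was also lost in sums of at least 5 cells (log2 fold change 1.00, edgeR adjusted p = 0.295), with library as a term in those sums (0.34, edgeR adjusted p = 0.845) and with all cells of the suture gate (1.16, edgeR adjusted p = 0.336).

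Lum, which regulates collagen fibrils in cornea, skin and tendon, missed the threshold although its sums did not overlap. Its levels were 1679, 1857 and 1478 CPM in suture stroma of CBMA_02m, CBMA_18m and CBMD_02m and 1169, 164 and 342 CPM in Cxcl12-high stroma of CBMA_18m, CBMD_12m and CBMD_18m. Cxcl12-high stroma of CBMA_18m stood nearest the suture sums, and the other Cxcl12-high sums were far lower. The edgeR log2 fold change was 1.64 ± 0.57 (SE, adjusted p = 0.0635). Lum was called in 3 of 15 alternatives, among them the fit without CBMA_18m (log2 fold change 2.69, edgeR adjusted p = 0.00617). Within CBMA_18m the ratio was 1.59.

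Bgn, a collagen-binding proteoglycan of bone matrix, ran the other way. It was at 2499, 2512 and 1694 CPM in suture stroma of CBMA_02m, CBMA_18m and CBMD_02m, against 2898, 3807 and 3210 CPM in Cxcl12-high stroma of CBMA_18m, CBMD_12m and CBMD_18m. The sums do not overlap, but the difference is small, with an edgeR log2 fold change of -0.46 ± 0.36 (SE, adjusted p = 0.417). The highest sum of this X-linked gene is from CBMD_12m, whose Xist level goes against the stated sex, and the part of this was not tested. Bgn was detected in 96.2% to 100% of the cells of each of these 6 sums. With Dcn, Lum, Fmod, Aspn and Ogn, 5 members had higher suture sums without overlap, beside 14.5% of all genes tested, and Bgn alone had lower ones, beside 22.9%.

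Prelp, which anchors matrix to basement membranes and collagen, and Omd, a keratan sulfate proteoglycan of mineralised matrix, overlapped between the classes. Prelp stood at 341, 471 and 390 CPM in suture stroma of CBMA_02m, CBMA_18m and CBMD_02m and at 434, 402 and 351 CPM in Cxcl12-high stroma of CBMA_18m, CBMD_12m and CBMD_18m. Its edgeR log2 fold change was 0.12 ± 0.27 (SE, adjusted p = 0.810), the smallest SE of the 8. Omd was at 24.1, 100 and 130 CPM in the suture sums and at 39.0, 74.4 and 87.7 CPM in the Cxcl12-high sums in the same order, with an edgeR log2 fold change of 0.54 ± 0.49 (SE, adjusted p = 0.492). Fmod and Prelp, neighbours on chromosome 1, thus stood apart in this contrast, as did Aspn and its neighbour Omd.

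**Figure D2:**
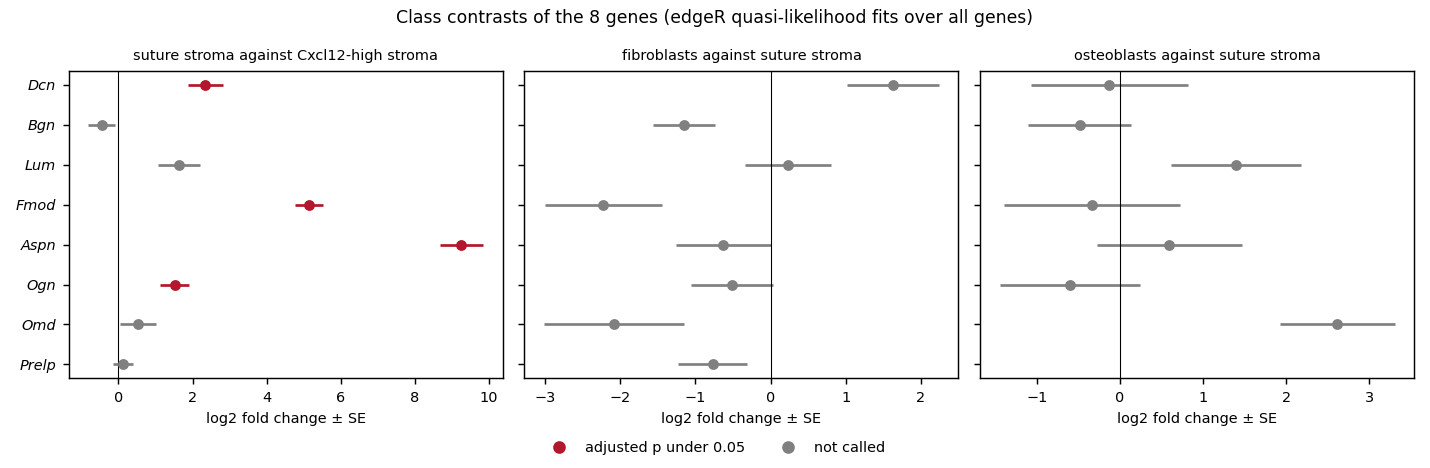
Log2 fold change ± SE of each gene from the edgeR fits over all genes, for suture stroma against Cxcl12-high stroma, fibroblasts against suture stroma and osteoblasts against suture stroma, with genes at an adjusted p under 0.05 in red. In the first contrast 4 genes are red, from 1.51 for Ogn to 9.26 for Aspn, and in the others none is. Prelp in osteoblasts, with 0 UMIs, is not drawn.

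Transcripts of other cells moved with these sums. The neutrophil list summed to 1007, 1934 and 16070 CPM in suture stroma of CBMA_02m, CBMA_18m and CBMD_02m and to 4815, 2521 and 626 CPM in Cxcl12-high stroma of CBMA_18m, CBMD_12m and CBMD_18m. The gate's own collagens were at 51013, 22415 and 36239 CPM in the suture sums. The 6 osteoblast markers summed to 459, 769 and 407 CPM in the suture sums and to 3038, 3949 and 2511 CPM in the Cxcl12-high sums, mostly through Ibsp, at 0 to 355 CPM in suture stroma, against 2216 to 3532 CPM. Alpl ran the other way, at 362 to 397 CPM in suture stroma, against 73.4 to 223 CPM in Cxcl12-high stroma. Their part in the results was not tested.

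The make-up of the family differed with the class. Dcn was 35.4%, 35.1% and 41.8% of the UMIs of the 8 genes in suture stroma of CBMA_02m, CBMA_18m and CBMD_02m, against 26.9%, 12.1% and 18.1% in Cxcl12-high stroma of CBMA_18m, CBMD_12m and CBMD_18m. Bgn was 18.7%, 16.7% and 9.20% of them in the suture sums, against 39.7%, 65.7% and 56.7% in the Cxcl12-high sums. Cell by cell, Dcn held the most UMIs of the 8 in 18 of 35, 44 of 110 and 21 of 32 suture stroma cells, while Bgn led in 80 of 105, 25 of 26 and 37 of 43 Cxcl12-high cells. These shares compare transcript counts of different genes as captured at the 3′ end, without a length term.

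**Figure D3:**
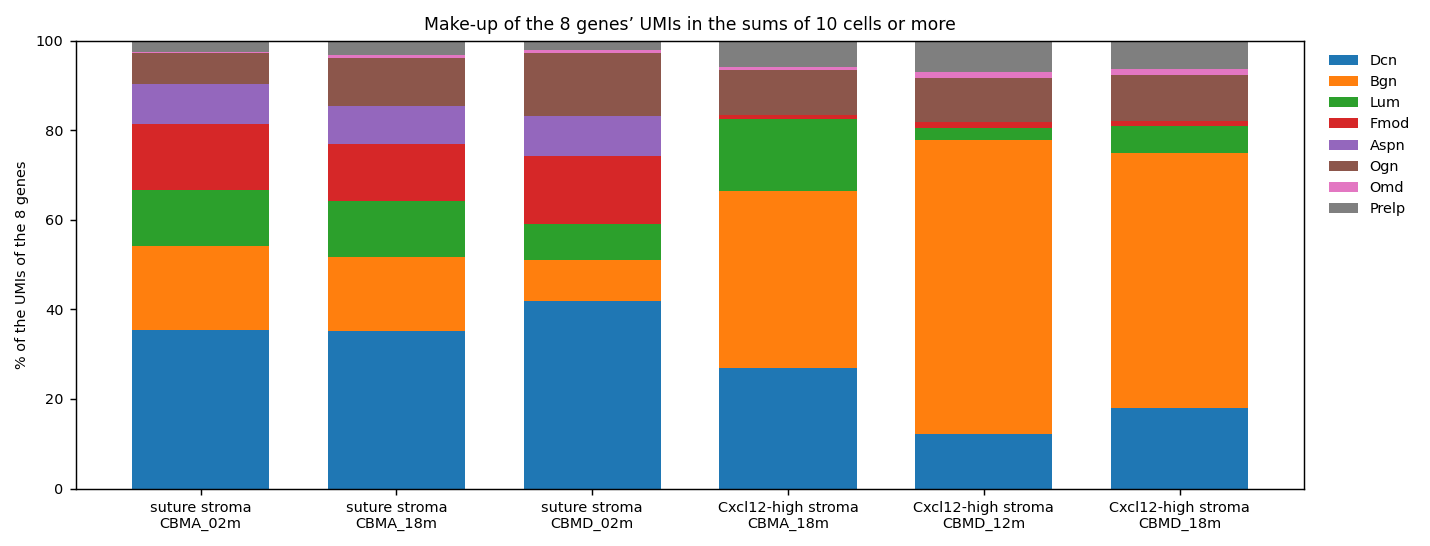
Percent of the UMIs of the 8 genes taken by each gene, in the 3 suture stroma sums (left) and the 3 Cxcl12-high sums (right) of 10 cells or more. Dcn, Fmod and Aspn fill more of the suture bars, and Bgn takes 39.7% to 65.7% of the Cxcl12-high bars.

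The gates for suture and Cxcl12-high stroma overlap. In CBMA_18m, 45 kept Cxcl12-high cells also passed the suture gate and 60 did not, at a median of 10447 and 6863.5 UMIs. The cells in both gates had 2286 CPM of Dcn, 1595 CPM of Lum and 863 CPM of Ogn, against 1583, 662 and 584 CPM in the others. Fmod was at 90.7 CPM against 32.7 CPM and Aspn at 6.33 CPM against 0 UMIs, and both sets of cells were far below the 1931 CPM of Fmod and 1263 CPM of Aspn in suture stroma of that library. With all cells of the gate taken as suture stroma, edgeR called 0 of 5162 genes, and the log2 fold changes were 11.59 for Aspn (adjusted p = 0.0924) and 5.20 for Fmod (adjusted p = 0.110). With library as a term in sums of at least 5 cells, Aspn and Fmod were called.

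Fibroblasts, gated on Dpt with Pi16 and Ly6a, were the richest in Dcn. The 6, 9 and 7 cells of CBMA_02m, CBMA_18m and CBMD_02m held 16434, 11941 and 14800 CPM of Dcn, against 4740, 5279 and 7699 CPM in suture stroma of the same libraries. Fmod was at 358 and 749 CPM in fibroblasts of CBMA_02m and CBMA_18m and at 0 UMIs in CBMD_02m, where suture stroma was at least 45.8-fold higher than the floor of 3 UMIs. Bgn was at 697, 1721 and 1082 CPM in the fibroblast sums, below the 2499, 2512 and 1694 CPM of suture stroma in each library.

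Against suture stroma in sums of at least 5 cells, 3 against 5, edgeR called 0 of the 8 genes in fibroblasts, beside 2.48% of 4363 genes higher and 1.19% lower. At an unadjusted p under 0.05 there were 4, beside 14.9% of all genes tested, and DESeq2 called 2, Bgn and Fmod, beside 5.39%. The edgeR log2 fold changes were 1.63 ± 0.61 for Dcn (SE, adjusted p = 0.178), -1.15 ± 0.42 for Bgn (adjusted p = 0.160) and -2.22 ± 0.77 for Fmod (adjusted p = 0.145). Dcn was higher and Bgn, Fmod, Aspn and Prelp lower in fibroblasts in 3 of 3 libraries with at least 5 cells of both classes. The share of all genes that kept their direction in these libraries was not counted. The suture sums of CBMD_12m and CBMD_18m, with 5 cells each, enter this fit, and Fmod was at 879 and 780.5 CPM there. The neutrophil list stood at 45994 CPM in that CBMD_12m sum, and its part in the fit was not tested. The CBMD_18m sum is the one whose markers went against its name. Without CBMD_18m edgeR again called 0 of the 8, with log2 fold changes of 1.28 for Dcn (adjusted p = 0.197), -1.11 for Bgn (adjusted p = 0.214) and -2.45 for Fmod (adjusted p = 0.118). Lum was at 2221, 1557 and 2429 CPM in fibroblasts of CBMA_02m, CBMA_18m and CBMD_02m, Aspn at 1186, 726 and 306 CPM, Ogn at 979, 1206 and 551 CPM and Prelp at 113, 281 and 184 CPM, with edgeR log2 fold changes between -0.77 and 0.24. Omd had 1 or 2 UMIs in each fibroblast sum.

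Osteoblasts, gated on Bglap and Bglap2, gave 1 sum of 9 cells, from CBMA_18m. Lum was at 4166 CPM there, against 1857 CPM in suture stroma of that library. Omd was at 517 CPM, against 100 CPM in suture stroma of that library. Dcn was at 3850 CPM, Bgn at 1677 CPM, Fmod at 1287 CPM, Aspn at 1582 CPM and Ogn at 781 CPM in the osteoblasts, but 1 cell held 46.7% of the Aspn UMIs and 56.8% of the Ogn UMIs. Prelp had 0 UMIs, and suture stroma of CBMA_18m was at least 14.9-fold higher than the floor of 3 UMIs. Set against 5 suture sums, edgeR called 0 of the 8 genes, beside 0.0458% of 4363 genes higher and 0.0% lower, while DESeq2 called 0, beside 0.0458% of genes. At an unadjusted p under 0.05 there were 2, beside 5.98% of all genes tested, Omd (log2 fold change 2.61 ± 0.69, SE, edgeR adjusted p = 0.541) and Prelp. Without CBMD_18m, whose suture sum went against its name, edgeR called 0 and the Omd log2 fold change was 2.77 (adjusted p = 0.333). The lone osteoblast sum is assumed in that fit to vary like the other classes.

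Age and site were compared within a class as ratios of CPM, with an exact 95% interval that covers counting error alone. With 1 library per age and site no test across mice was possible, and age or site cannot be told apart from the library. A gene was counted as higher or lower at 1.5-fold with at least 50 UMIs over both sums. Suture stroma gave an age ratio in CBMA, 18 over 2 months, and a site ratio at 2 months, and Cxcl12-high stroma an age ratio in CBMD, 18 over 12 months, and a site ratio at 18 months.

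In suture stroma of CBMA, Ogn and Omd were higher at 18 than at 2 months and the other 6 stayed below 1.5-fold. Ogn was at 1625 CPM at 18 months, against 924 CPM at 2 months, a ratio of 1.76 (1.55 to 2.01). Omd was at 100 CPM (112 UMIs), against 24.1 CPM (7 UMIs), a ratio of 4.16 (1.95 to 10.57). Dcn (1.11), Bgn (1.00), Lum (1.11), Fmod (0.981) and Aspn (1.05) were near equality, and Prelp was at 1.38 (1.11 to 1.73). The 2 higher members stand beside 23.8% of 4272 measured genes higher and the 0 lower beside 13.8%, with a median log2 ratio of 0.12 over those genes. A count of 2 is close to the share of all genes and does not mark out the family. The share of cells with an Ogn UMI was 95.5% at 18 months, against 71.4% at 2 months, and after thinning each cell to 1000 UMIs 69.7% against 44.7%. The neutrophil list stood at 1934 CPM at 18 months, against 1007 CPM at 2 months, and the gate's own collagens at 22415 CPM, against 51013 CPM. Of the markers outside the gates, Ibsp, Mfap5, Hp, Vcam1 and Foxc1 were at least 1.5-fold higher at 18 months, and Tnn, Ctsk and Twist1 lower. The part of these differences in the ratios was not tested. The Ogn ratio was 1.48, short of 1.5-fold, when all cells of the gate were used.

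At 2 months, suture stroma near the suture held less Dcn and Ogn than suture stroma of the distant bone. Dcn was at 4740 CPM in CBMA_02m, against 7699 CPM in CBMD_02m, a ratio of 0.616 (0.575 to 0.659). Ogn was at 924 CPM, against 2563 CPM, a ratio of 0.360 (0.312 to 0.415), and 44.7% of CBMA_02m cells, against 85.4% of CBMD_02m cells, held Ogn at 1000 UMIs. These 2 genes stand beside 16.1% of 1677 measured genes lower, and 0 members were higher beside 7.63%. Fmod (0.702), Aspn (0.723), Lum (1.14), Prelp (0.875) and Bgn (1.48) stayed below 1.5-fold, and Omd had only 45 UMIs over both sums. The Dcn ratio was 0.809 with all cells of the gate, 0.668 with at least 40 collagen UMIs and 0.744 with no upper limit on genes, each short of 1.5-fold. The neutrophil list stood at 1007 CPM in CBMA_02m, against 16070 CPM in CBMD_02m, and its part in these ratios was not tested.

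In Cxcl12-high stroma of CBMD, Lum alone was higher at 18 than at 12 months, at 342 CPM against 164 CPM, a ratio of 2.09 (1.32 to 3.46) that rests on 117 and 22 UMIs. This is 1 member beside 10.1% of 1450 measured genes higher, with 0 lower beside 25.9%. A count of 1 does not mark out the family. Dcn was at 1023 CPM at 18 months, against 699 CPM at 12 months (1.46), Bgn at 3210 CPM against 3807 CPM (0.843), Ogn at 573 CPM against 580 CPM (0.988) and Prelp at 351 CPM against 402 CPM (0.874). The Lum ratio was 1.39 as a mean of per-cell CPM, which is short of 1.5-fold. The Xist level of the 12-month library, given above, moves with this comparison, as does the neutrophil list, at 626 CPM at 18 months, against 2521 CPM at 12 months, and their part was not tested.

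At 18 months, Cxcl12-high stroma next to the suture held more Dcn and Lum and less Omd than that of the distant bone. Lum was at 1169 CPM in CBMA_18m, against 342 CPM in CBMD_18m, a ratio of 3.42 (2.82 to 4.18). Dcn was at 1965 CPM, against 1023 CPM, a ratio of 1.92 (1.71 to 2.16), and Omd at 39.0 CPM, against 87.7 CPM, a ratio of 0.445 (0.264 to 0.752) on 34 and 30 UMIs. These stand beside 13.2% of 3997 measured genes higher and 5.25% lower. Thinned to 1000 UMIs, 71.7% of CBMA_18m cells, against 46.2% of CBMD_18m cells, held Dcn and 51.1%, against 22.3%, held Lum. Bgn (0.903), Fmod (0.916), Ogn (1.28) and Prelp (1.24) stayed below 1.5-fold. The neutrophil list stood at 4815 CPM in CBMA_18m, against 626 CPM in CBMD_18m, with 7 of 8 measured members higher, and its part in these ratios was not tested. Of the CBMA_18m cells, 45 of 105 had also passed the suture gate, against 13 of 43 in CBMD_18m, and in the cells outside that gate Lum was at 662 CPM, against 261 CPM, and Dcn at 1583 CPM, against 863 CPM.

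**Figure D4:**
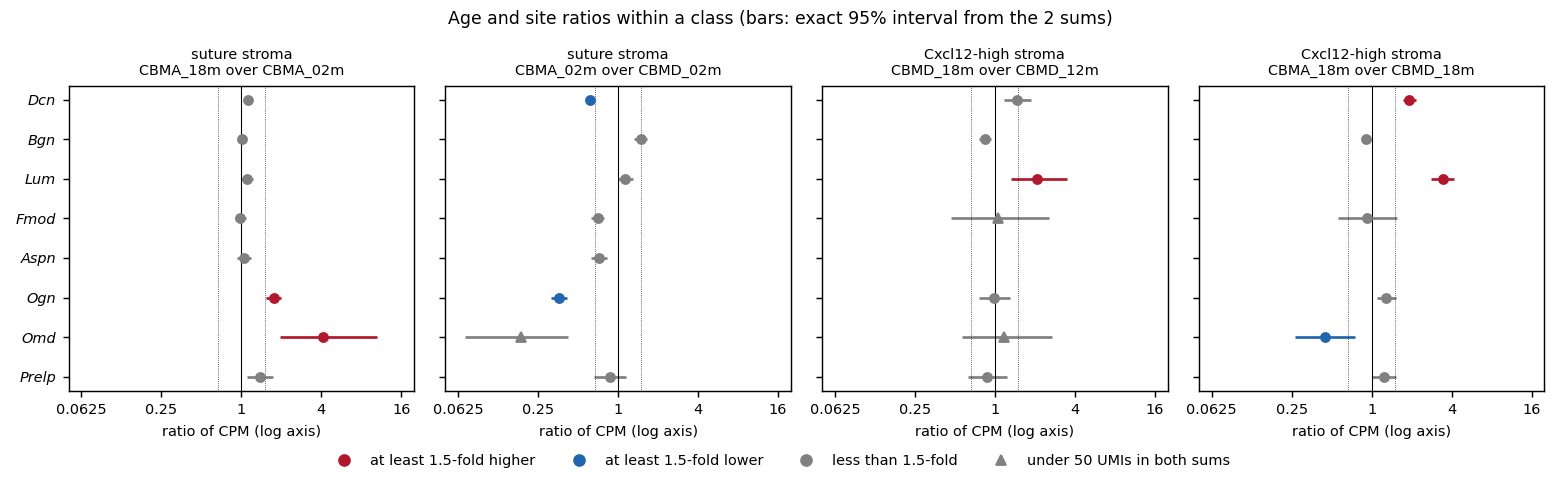
Ratio of CPM (log axis) with its exact 95% interval for each gene, in the age and site pairs that have at least 10 cells on both sides. Ogn and Omd are red in suture stroma at 18 over 2 months, Dcn and Ogn are blue in CBMA_02m over CBMD_02m, and Dcn and Lum are red in CBMA_18m over CBMD_18m of Cxcl12-high stroma.

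Suture stroma cells did not carry the 8 genes in 1 proportion. Over single cells, Dcn correlated with Lum at r = 0.36, 0.35 and 0.37 and with Aspn at 0.26, 0.40 and 0.29 in CBMA_02m, CBMA_18m and CBMD_02m. Fmod correlated with Prelp at 0.70, 0.45 and 0.35 and with Ogn at 0.61, 0.35 and 0.30. Lum ran against Fmod at -0.36, -0.18 and -0.23 and against Ogn at -0.51, -0.13 and -0.40, each weakest in CBMA_18m, which had the most cells. With Aspn, Lum correlated at 0.40, 0.15 and 0.81. These are descriptions over 35, 110 and 32 cells of 1 library each, which share a gate, a depth and a total.

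**Figure D5:**
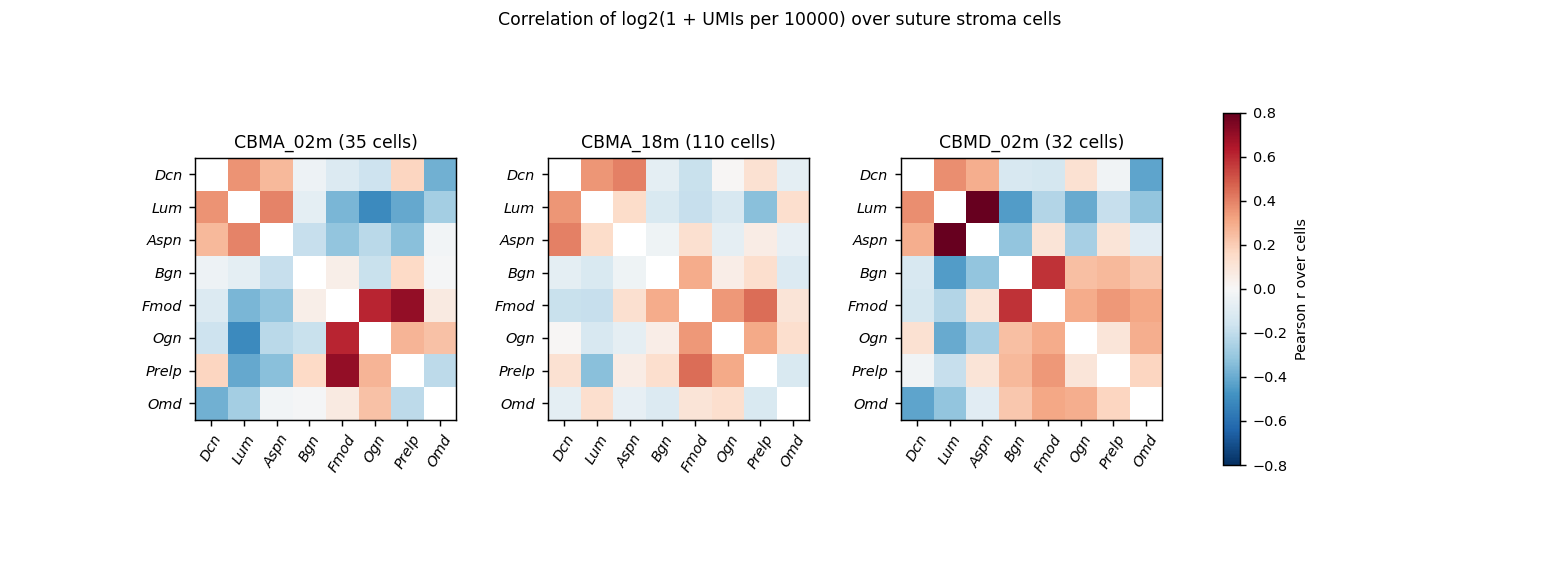
Pearson r of log2(1 + UMIs per 10000) between each pair of genes over the suture stroma cells of CBMA_02m (35 cells), CBMA_18m (110 cells) and CBMD_02m (32 cells). Dcn and Lum are positive in the 3 panels, Fmod, Ogn and Prelp are positive with each other in the 3, and Lum with Fmod is negative in the 3 panels.

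Likeness of pattern was measured as r of log2(CPM + 10) across 35 sums of 10 cells or more from 10 classes. Dcn was closest to Bmper (r = 0.97), Lum (0.97) and Abi3bp (0.97). Fmod was closest to Col1a1 (0.97) and Col3a1 (0.96), both genes of the suture gate, and to C1qtnf2 (0.96). Prelp was closest to Prrx1 (0.99), a gene of the suture gate, Bgn to Fkbp9 (0.99) and the collagen chaperone Serpinh1 (0.98), Omd to the osteoblast regulator Dlx5 (0.97) and Aspn to Cpxm2 (0.96). Lum was closest to Gdf10 (0.99), and Ogn to Zfhx4 (0.98). Among the members the highest r was that of Dcn with Lum and the lowest that of Dcn with Aspn (0.44). The sums share libraries and are few per class, and r here mostly separates stroma from blood cells.

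Aspn, Ogn, Bgn and Prelp were also held by mural cells, the pericytes and smooth muscle of vessels. In the 11, 14, 52 and 26 mural cells of CBMA_02m, CBMA_12m, CBMA_18m and CBMD_02m, Aspn was at 658, 729, 800 and 505 CPM, Ogn at 374, 371, 490 and 94.97 CPM and Bgn at 658, 477, 615 and 344 CPM. Prelp was at 180, 66.3, 170 and 166 CPM in the same order, and mural cells held 7.86% of all Prelp UMIs and 6.79% of all Ogn UMIs. Dcn had 0 UMIs in all 4 of these sums, and Lum had 2 UMIs in CBMA_18m and 0 in the other 3. These sums held Aspn without Dcn, and 18.2% of all Aspn UMIs lay in mural cells. Cells that passed a stromal gate had been counted there before the mural gate was applied. The part of this order in the absence of Dcn was not tested. The 11 cells of CBMA_02m were all called doublets by score.

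Other genes of the pathway were taken from fixed lists and read in the same edgeR fit of suture against Cxcl12-high stroma. In that fit 8.9% of all genes tested were higher and 10.9% lower. Of 11 other leucine-rich repeat matrix genes 4 were tested, 2 were higher, 1 was lower and the median log2 fold change was 1.08. Chad, the chondroadherin gene of cartilage, was at 188 to 488 CPM in suture stroma and 0 UMIs in all 3 Cxcl12-high sums. Ecm2, which lies 11653 bases before Aspn, was at 188 to 207 CPM, against 29.7 to 51.6 CPM (log2 fold change 2.27 ± 0.28, SE), and Podnl1 was lower at 3.42 to 27.6 CPM, against 75.7 to 164 CPM.

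Of 22 collagen fibril partners tested, 14 were higher and 1 was lower, beside 8.9% and 10.9% of all genes tested, with a median log2 fold change of 1.81. The suture gate requires collagen UMIs and the Cxcl12-high gate does not, and the part of the gate in this count was not tested. Thbs2, a thrombospondin known for collagen fibril assembly, was at 1786 to 2065 CPM in suture stroma, against 59.5 to 223 CPM in Cxcl12-high stroma. Col14a1, a fibril-associated collagen, was at 317 to 832 CPM, against 0 to 41.3 CPM, and Fn1, fibronectin, at 236 to 941 CPM, against 19.5 to 74.4 CPM. Col5a3 was the lower one. Of 13 other proteoglycans tested, 5 were higher, among them Acan, Gpc3 and Spock2, and 2 were lower, Sdc1 and Gpc6, with a median of 0.60.

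Genes that build glycosaminoglycan chains did not move as a group, with 1 higher (Chst12) and 2 lower (Chst15 and Chst11) of 14 tested and a median of 0.24. Chst15, a chondroitin sulfotransferase, was at 3.42 to 19.7 CPM in suture stroma, against 104 to 149 CPM in Cxcl12-high stroma. TGF-beta and BMP ligands and receptors, which several members bind, had 5 higher and 4 lower of 15 tested, with a median of 0.34. Bmp4 was at 13.7 to 37.9 CPM, against 202 to 430 CPM, and Tgfb2 at 17.1 to 82.4 CPM, against 2.92 to 37.2 CPM. Of 12 proteases and inhibitors 3 were higher, Mmp2, Timp2 and Mmp14, and 0 were lower, with a median of 0.21. None of the 4 tested receptors reported for decorin or biglycan was called, at an adjusted or at an unadjusted p under 0.05, which 32.8% of all genes tested passed unadjusted. Of the 9 neutrophil transcripts tested 0 were called, and of the 2 endothelial and mural genes tested Acta2 was higher and Rgs5 lower.

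In fibroblasts against suture stroma the lists gave fewer calls by edgeR, beside 2.48% of all genes tested higher and 1.19% lower. Prg4, the lubricin gene, was the 1 higher of 6 other leucine-rich repeat matrix genes tested (log2 fold change 5.11 ± 0.81, SE). Of 24 collagen fibril partners, Tnxb and Col5a3 were higher and Col11a1, Thbs1 and Col12a1 were lower. Vcan and Hspg2 were higher and Gpc1 and Sdc3 lower of 15 other proteoglycans, Bmp4 and Tgfbr3 were higher of 15 ligands and receptors, Pcolce2 was higher and Mmp13 lower of 14 proteases, and Ugdh was higher of 11 chain synthesis genes. In osteoblasts none of the lists' genes was called by edgeR, with up to 4 in a list at an unadjusted p under 0.05.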

How the data were processed

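The deposited matrices are raw UMI counts, which the authors made with bcl2fastq and Cell Ranger on GRCm38 (tools named in the submitters' processing notes and methods). They list 55450 genes and 43420 barcodes with 261183614 UMIs, and 0 columns of another series. As in the study, cells needed more than 500 UMIs, 500 to 5000 genes and a mitochondrial share below 25%, and genes had to be seen in over 3 cells. This left 37576 cells, more than the number the study states. The upper gene limit removed 1587 cells. Cells were gated on UMIs and counted once, as osteoblast (Bglap plus Bglap2 at least 10, collagens at least 20), fibroblast (Dpt at least 1, Pi16 plus Ly6a at least 2, collagens at least 5), Cxcl12-high stroma (Cxcl12 at least 20, Lepr or Adipoq), suture stroma, and then Schwann, mural, endothelial, T, B lineage and neutrophil. Scrublet called 195 cells (0.519%) at its automatic threshold, so the 2393 highest scores (6.37%) were used instead and left out only in an alternative.

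UMIs were summed per class and library. Classes were compared with edgeR 4.0.16 (TMM, filterByExpr, quasi-likelihood F-test, Benjamini-Hochberg over all genes tested, called under 0.05) at 10 cells a sum. The SE beside an edgeR log2 fold change was derived from the test, as the absolute log2 fold change divided by the square root of F. No fibroblast or osteoblast sum reached 10 cells, so those 2 fits, planned at 10, were made at 5. On simulated counts of the suture against Cxcl12-high comparison (5058 genes), 69 of 100 genes changed by log2 2 and 5 of 100 changed by log2 1 were called, with 9 false calls. Ratios have exact conditional binomial intervals and shares Clopper-Pearson intervals, both at 95% and both for counting error only; the floor is 3 UMIs per library. Alternatives were DESeq2 1.42.0, other normalization, filters, gates and doublets, and leaving out each library. Every member is named. For each list the called genes are counted and up to 3 with the largest change are named; others were named after their values were seen. Likeness is Pearson r over genes with at least 100 stromal UMIs (5480 candidates). Gene coordinates are from GENCODE on GRCm38. The 8 genes, the lists and the gates were chosen with earlier results of these data known. The software was R 4.3.3 and Python 3.11.15 with matplotlib 3.10.9, scanpy 1.11.5, scipy 1.17.1, pandas 2.3.3 and numpy 2.4.6.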

Additional observations from a re-analysis of the deposited data

Results flagged for a closer look

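Cells that passed no gate also held the 8 genes, above the level of neutrophils of the same library in 5 of 6 libraries. Their summed level was 31.0 CPM in CBMA_02m, against 4.63 CPM in neutrophils, 229 CPM in CBMA_12m, against 23.0 CPM, 135 CPM in CBMA_18m, against 23.1 CPM, 48.1 CPM in CBMD_12m, against 5.21 CPM, and 6.09 CPM in CBMD_18m, against 2.57 CPM. In CBMD_02m it was 16.8 CPM, against 19.98 CPM in neutrophils. Of 14643 such cells, 40 held at least 20 UMIs of the 8 genes and 78.6% of these UMIs, and 14 of the 40 had at least 20 collagen UMIs and no Prrx1 UMI.

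Ogn went opposite ways by site in 2 classes at 2 months. CBMA_02m over CBMD_02m was 0.360 in suture stroma and 3.94 in mural cells. The mural ratio rests on 41 UMIs, 11 of the 11 CBMA_02m mural cells were called doublets by score, and the difference between the classes was not tested.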

How the results depend on the processing

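No called result changed its direction. For single genes, 282 of 304 contrast values, 218 of 239 ratios and 59 of 64 thinned shares kept their side of the threshold or moved by less than their error. Of the 8 genes, 4 were higher in suture than in Cxcl12-high stroma; leaving out each library in turn gave 3 to 5, sums of at least 5 cells gave 2, library as a term in such sums gave 2, and all cells of the suture gate gave 0. Dcn and Ogn were lost in each of the last 3. For fibroblasts, with 0 called, DESeq2 gave 2, no low-count filter 1 and library as a term 1. For osteoblasts, with 0 called, no low-count filter gave 2, library as a term 1 and leaving out called doublets 1. In Cxcl12-high stroma of CBMD at 18 over 12 months, 1 member passed 1.5-fold, and 2 did under median-of-ratios size factors, with all cells of the gate, with no upper limit on genes and as a mean of per-cell CPM. In suture stroma, CBMA_02m over CBMD_02m had 2 members past 1.5-fold and 4 without called doublets, and CBMA_18m over CBMA_02m had 2 and, with all cells of the gate, 1. Of 32 differences in thinned shares 4 exceeded their counting error, against 7 at 2000 UMIs and 9 unthinned. The causes were not tested. The alternatives with library as a term in sums of at least 5 cells and with no upper limit on genes were chosen after seeing the data. Fits of fibroblasts or osteoblasts at 20 cells or with all cells of the gate, of osteoblasts without CBMA_18m, and of suture stroma with library as a term at 10 cells gave no value. No paired analysis was possible between ages or sites because each has 1 library, which the labels number as replicate 1; the classes were paired within libraries only through library as a term.

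The limits are those of 1 pooled library per age and site, of 4 to 110 suture stroma cells per library and of gates on the genes of the same cells. Suture stroma below 10 cells in CBMA_12m, CBMD_12m and CBMD_18m leaves no age course beyond 2 and 18 months in CBMA.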
